A study of Mus musculus with 6 samples.

Results

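Aromatic amino acid catabolism in liver was described through 9 enzyme genes, Tdo2, Afmid, Kmo, Kynu and Haao of the tryptophan route and Qdpr, Hpd, Hgd and Fah of the phenylalanine and tyrosine route. They were taken by name from the 35082 genes with a value in the files, as a pathway and not by a cut on values. The choice was made with earlier results of these data known. RNA of whole liver was sequenced from 6 male mice, 3 per group, which the series describes as biological replicates. All 6 mice ate a high-fat diet for 20 weeks from an age of 8 weeks, to bring on steatotic liver disease. The control group had the genotype G3BP1f/f, with loxP-flanked alleles and no Cre, and the other group had the genotype Alb-cre; G3BP1f/f. In the latter the albumin promoter drives Cre recombinase in hepatocytes, and liver cells in which it has not been active keep the gene. The comparison asks how the liver transcriptome on this diet differs when G3BP1, an RNA-binding protein of stress granules, is deleted in hepatocytes.

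The liver breaks down most dietary phenylalanine, tyrosine and tryptophan, and hepatocytes hold nearly the whole set of enzymes. Phenylalanine is hydroxylated to tyrosine with tetrahydrobiopterin as cofactor, and tyrosine is then opened and cleaved to fumarate and acetoacetate. Tryptophan is oxidised along the kynurenine route to quinolinate, a precursor of NAD, or to acetyl-CoA. Inherited loss of FAH in humans causes tyrosinaemia, and loss of HGD causes alkaptonuria.

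Total estimated counts ran from 20899135 to 21750007 per library. Levels are CPM, which are counts scaled to library size with TMM factors, except where TPM, which also divides by transcript length, is named. Values of a group are always in the order of replicates 1 to 3. The targeted gene G3bp1 measured 44.1, 34.8 and 40.5 CPM across the controls, against 44.0, 29.9 and 31.5 CPM across the knockout-labelled mice. These groups overlapped, and the log2 difference was -0.18 with a 95% interval of -0.67 to 0.31 (edgeR adjusted p = 0.91). Because the sum over its transcripts does not set the groups apart, the libraries are called control and knockout-labelled. In knockout-labelled replicates 2 and 3 short genes lay low. The median deviation of genes of up to 800 bases from their mean was -0.31 and -0.54 log2 units there and 0.13 to 0.31 in the other libraries. Knockout-labelled replicates 2 and 3 also had 36.3% and 37.8% of transcripts above 0, against 30.2% to 31.2% elsewhere. Their mitochondrial percentage was 9.19% and 10.16%, against 7.22% to 7.64% elsewhere. Their implied fragments were 259 and 262 bases long, against 242 to 255 bases elsewhere. The part of these features in the differences between the groups was not tested. In knockout-labelled replicate 1 the shortest transcript (9 bases) was given 1.82 effective bases, against 9 in the other 5 libraries. For long transcripts the implied fragment length of that library was 250 bases, within the range of the other libraries. The tests of the 9 enzymes, G3bp1 and the pathway lists were repeated without each library in turn. For G3bp1 the log2 difference was -0.38 without knockout-labelled replicate 1 and -0.08 without knockout-labelled replicate 2. It was -0.40 with each library's trend over gene length removed.

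All 9 enzymes passed the filter on low counts, with at least 580 counts in every library, and 0 were called different between the groups. The edgeR test called 0.0% of the 12497 genes tested, where the smallest adjusted p was 0.84. An unadjusted p below 0.05 was reached by 568 genes, or 4.55%, with 0 of the 9 enzymes among them. DESeq2 called 12 genes, or 0.0931% of those it tested, and 0 of the 9 enzymes. The log2 differences, knockout-labelled minus control, lay above 0 for 4 enzymes and below 0 for 5, where 51.6% of all genes lay above and 48.4% below. Their median was -0.12, beside 0.01 over all genes, and ran from -0.19, without knockout-labelled replicate 2, to 0.03, without control replicate 2. The 95% interval stayed within 1 log2 unit on either side of 0 for 6 of the 9, the exceptions being Hpd, Kynu and Afmid. Kynu was the 1 enzyme whose knockout-labelled libraries all lay above the controls, an arrangement found in 4.78% of all genes, and Kmo the 1 whose libraries all lay below, found in 4.55%. The share of all genes without overlap in either direction was 9.33%.

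**Figure D1:**
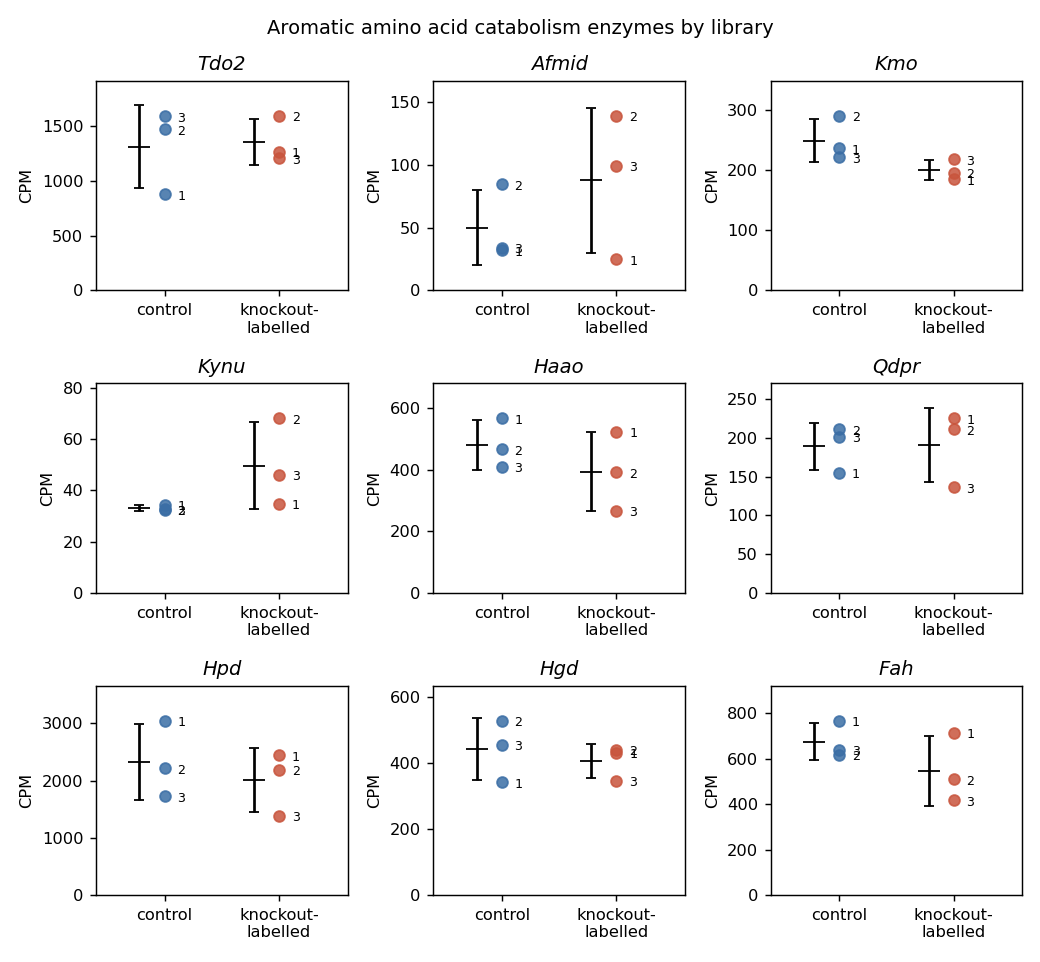
Scaled CPM (vertical axes, from 0) of the 9 enzymes in 3 control and 3 knockout-labelled libraries, with points numbered by replicate and bars giving the mean and SD. The groups overlap in 7 panels, with Kynu (34.8 CPM or more against 34.3 or less) and Kmo (218 or less against 221 or more) as the exceptions.

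Ordered by level per length in the deposited TPM, the enzymes spanned from Hpd, with a median of 1526.2 TPM over the 6 libraries, down to Kynu with 11.1 TPM. Hpd, at 1154.0 to 2603.0 TPM, did not overlap with any other enzyme. Haao (246.7 to 562.3 TPM), Tdo2 (176.2 to 526.8 TPM) and Fah (293.6 to 433.7 TPM) could not be ordered, since Haao exceeded Tdo2 in 2 of 6 libraries and Tdo2 exceeded Fah in 4 of 6. Hgd followed at 207.1 to 358.9 TPM and lay below Fah in all 6 libraries. Qdpr at 100.8 to 191.4 TPM and Kmo at 54.6 to 83.4 TPM were each clear of the neighbour above. Afmid at 10.9 to 61.3 TPM exceeded Kynu, at 8.9 to 26.3 TPM, in 5 of 6 libraries.

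Tdo2 encodes tryptophan dioxygenase, the haem enzyme that opens the indole ring and controls hepatic entry into the kynurenine route (ENSMUSG00000028011; chromosome 3, 81957090 to 81976202, minus strand, GRCm38). It measured 877, 1470 and 1587 CPM across the controls, against 1262, 1591 and 1204 CPM across the knockout-labelled mice. Control replicate 1 stood lowest, knockout-labelled replicates 1 and 3 lay between it and the other controls, and knockout-labelled replicate 2 was level with the highest control. The log2 difference was 0.04 (SE 0.31, interval -0.67 to 0.76, edgeR adjusted p = 0.98).

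Kmo, kynurenine monooxygenase of the outer mitochondrial membrane, hydroxylates kynurenine (ENSMUSG00000039783; chromosome 1, 175620381 to 175662116, plus strand). It measured 236, 290 and 221 CPM across the controls, against 185, 196 and 218 CPM across the knockout-labelled mice. Every knockout-labelled library lay below every control, though knockout-labelled replicate 3 and control replicate 3 were 218 and 221 CPM. The means were 249 ± 36.4 and 200 ± 16.7 CPM (SD, n = 3 each), a log2 difference of -0.32 (SE 0.21, interval -0.81 to 0.17, edgeR adjusted p = 0.85). Leaving out 1 library at a time gave -0.39 to -0.20. In log2(TPM + 0.1), where the median of all genes was 0.34, the Kmo difference was 0.03.

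Kynu, kynureninase, cleaves hydroxykynurenine to hydroxyanthranilate with pyridoxal phosphate (ENSMUSG00000026866; chromosome 2, 43555329 to 43682715, plus strand). It measured 34.3, 32.6 and 32.5 CPM across the controls, a narrow spread, and 34.8, 68.1 and 46.2 CPM across the knockout-labelled mice. Knockout-labelled replicate 1 lay beside the controls and the other 2 above them. The log2 difference of 0.59 (SE 0.26, interval -0.0024 to 1.17, edgeR adjusted p = 0.84) had the smallest p among the 9 enzymes and did not pass. It was 0.29 without knockout-labelled replicate 2 and 0.44 with each library's trend over gene length removed. The 1 transcript Kynu-201 held 93.7% to 94.6% of the Kynu counts in every library.

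Macrophages also express Kmo and Kynu. The 10 Kupffer cell and macrophage markers summed to 251, 379 and 714 CPM across the controls, against 349, 257 and 313 CPM across the knockout-labelled mice, and 0 of the 10 were at 0 in every library. Control replicate 3, the highest for these markers, was the lowest control for Kmo. Knockout-labelled replicate 2, the highest library for Kynu, was the second lowest for the markers. Their part in the values of Kmo and Kynu was not tested. In RNA of whole liver, fewer cells of a type and less RNA per cell cannot be told apart.

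Haao, hydroxyanthranilate dioxygenase, makes the direct precursor of quinolinate (ENSMUSG00000000673; chromosome 17, 83831156 to 83847963, minus strand). It measured 567, 466 and 409 CPM across the controls, against 523, 392 and 266 CPM across the knockout-labelled mice. Knockout-labelled replicate 3 was the lowest and the other 2 lay within or just under the controls. The log2 difference of -0.29 (SE 0.30, interval -0.97 to 0.39, edgeR adjusted p = 0.89) was -0.07 without knockout-labelled replicate 3 and -0.55 without knockout-labelled replicate 1.

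Qdpr encodes quinoid dihydropteridine reductase, which regenerates tetrahydrobiopterin after each round of phenylalanine hydroxylation (ENSMUSG00000015806; chromosome 5, 45434021 to 45450236, minus strand). It measured 155, 211 and 201 CPM across the controls, against 225, 211 and 136 CPM across the knockout-labelled mice. The knockout-labelled group held both the highest and the lowest library, and the log2 difference was 0.02 (SE 0.26, interval -0.58 to 0.61, edgeR adjusted p = 0.99).

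Hpd, hydroxyphenylpyruvate dioxygenase, forms homogentisate and was the most abundant of the set (ENSMUSG00000029445; chromosome 5, 123171807 to 123182727, minus strand). It measured 3044, 2217 and 1732 CPM across the controls, against 2446, 2194 and 1387 CPM across the knockout-labelled mice. The spread within each group exceeded the distance between the means of 2331 ± 664 and 2009 ± 553 CPM (SD, n = 3 each). The log2 difference was -0.21 (SE 0.35, interval -1.01 to 0.58, edgeR adjusted p = 0.93), and it was 0.02 without control replicate 1.

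Hgd, homogentisate dioxygenase, opens the aromatic ring (ENSMUSG00000022821; chromosome 16, 37580153 to 37632020, plus strand). It measured 341, 527 and 455 CPM across the controls, against 430, 440 and 346 CPM across the knockout-labelled mice, so that the controls spanned the knockout-labelled libraries. The log2 difference was -0.12 (SE 0.25, interval -0.70 to 0.45, edgeR adjusted p = 0.95).

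Fah, fumarylacetoacetate hydrolase, carries out the last cleavage of tyrosine breakdown (ENSMUSG00000030630; chromosome 7, 84585159 to 84606722, minus strand). It measured 765, 617 and 639 CPM across the controls, against 713, 509 and 416 CPM across the knockout-labelled mice. Knockout-labelled replicates 2 and 3 lay below every control, and replicate 1 lay above 2 of them. The log2 difference of -0.30 (SE 0.27, interval -0.93 to 0.32, edgeR adjusted p = 0.87) was -0.14 without knockout-labelled replicate 3 and -0.55 without knockout-labelled replicate 1.

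**Figure D2:**
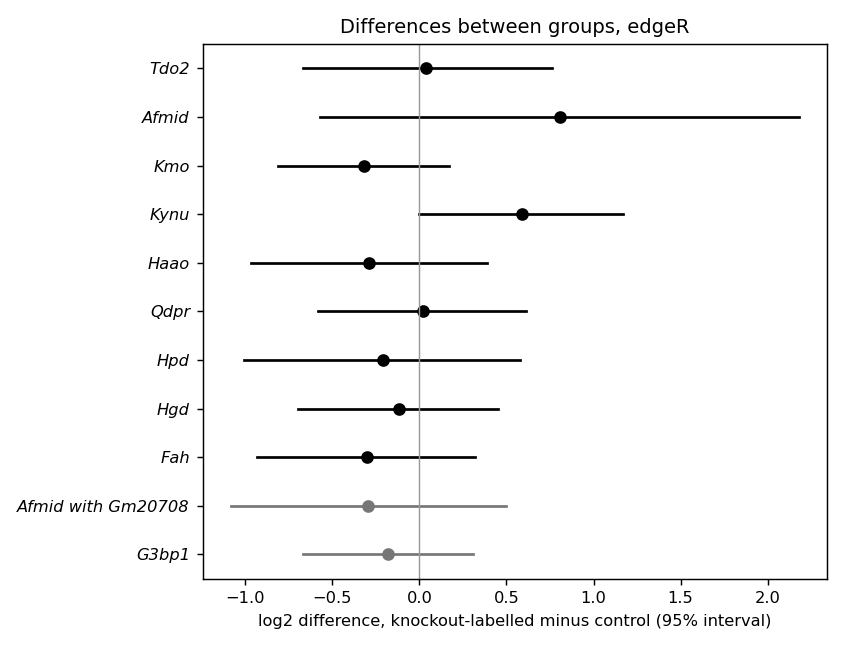
Log2 difference between knockout-labelled and control libraries (horizontal axis) with 95% intervals from edgeR for the 9 enzymes, and in grey for Afmid counted with Gm20708 and for G3bp1. All intervals include 0, and the interval of Afmid, from -0.57 to 2.18, is the widest.

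Afmid, arylformamidase, hydrolyses formylkynurenine to kynurenine (ENSMUSG00000017718; chromosome 11, 117825924 to 117839908, plus strand). It varied most among the 9, at 31.9, 84.4 and 34.0 CPM across the controls, against 25.0, 139 and 99.3 CPM across the knockout-labelled mice. The knockout-labelled group held the lowest library and also the highest pair, and the log2 difference was 0.81 (SE 0.60, interval -0.57 to 2.18, edgeR adjusted p = 0.85).

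The annotation holds a second gene on the same strand, Gm20708, whose single transcript starts upstream of Afmid and takes 1566 of its 1780 bases, or 88.0%, from Afmid-201 exons. Reads from those bases were therefore divided between both genes by the estimate. Gm20708 measured 243, 73.1 and 77.2 CPM across the controls, against 140, 26.8 and 13.6 CPM across the knockout-labelled mice, so that it was high where Afmid was low. The share given to Afmid was 11.6%, 53.6% and 30.6% across the controls, against 15.1%, 83.8% and 88.0% across the knockout-labelled mice. Counted together, the genes measured 275, 157 and 111 CPM across the controls, against 165, 165 and 113 CPM across the knockout-labelled mice, with the groups overlapping. The log2 difference of the sum was -0.29 (SE 0.35, interval -1.08 to 0.50, edgeR adjusted p = 0.91), opposite in sign to that of Afmid alone. This sum was chosen after the values had been seen. On the opposite strand Afmid overlaps Tk1, a thymidine kinase gene, by 83 exonic bases, and Tk1 measured 28.6 ± 11.3 CPM in controls against 15.7 ± 4.49 CPM in knockout-labelled mice (SD, n = 3, edgeR adjusted p = 0.84). The junctions below, read from GENCODE M21 on GRCm38, show where the pair meets, since both run into the same last exon. Capitals mark the downstream exon, which is shared, and lower case the upstream exon. The join between them tells the transcripts apart.
Afmid-201: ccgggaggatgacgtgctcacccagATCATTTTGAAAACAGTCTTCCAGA
Gm20708-201: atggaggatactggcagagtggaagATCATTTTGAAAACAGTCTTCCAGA
The upstream exon ends at 117836512 in Afmid-201 and at 117832576 in Gm20708-201, and the downstream exon starts at 117838493 on chromosome 11 in both.

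**Figure D3:**
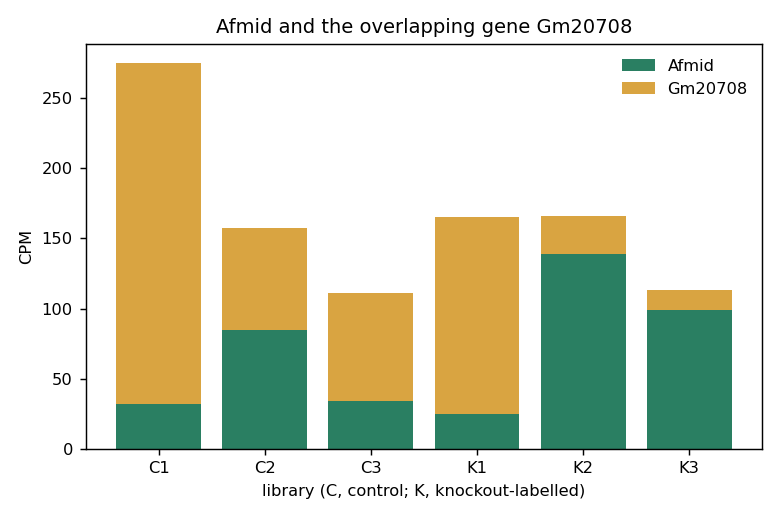
Stacked scaled CPM (vertical axis) assigned to Afmid and to the overlapping gene Gm20708 in each library (C, control; K, knockout-labelled). The Afmid part runs from 25.0 CPM in K1 to 139 CPM in K2 while both bars are 165 CPM high.

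The same libraries differed in how the estimate spread reads over the transcripts of Hgd, Haao and Qdpr, although the gene sums overlapped between the groups. Hgd-203, of 1702 bases, held 9.06%, 75.7% and 47.1% of Hgd counts across the controls, against 17.8%, 92.2% and 91.9% across the knockout-labelled mice. Hgd-201, of 1516 bases, all of which lie in Hgd-203, skips an exon and held most of the remainder, at 82.1%, 23.5% and 51.6% in controls against 69.0%, 6.28% and 5.70% in knockout-labelled mice. Control replicate 1 and knockout-labelled replicate 1 thus stood together, as did knockout-labelled replicates 2 and 3 with control replicate 2 nearest to them.

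Haao was likewise divided most unlike the rest in replicate 1 of both groups. The longer Haao-201, of 1381 bases, held 39.0%, 79.6% and 69.1% of Haao counts across the controls, against 53.5%, 79.4% and 79.7% across the knockout-labelled mice. The short Haao-202, of 777 bases, held 58.5%, 15.2% and 26.6% in controls against 44.5%, 9.20% and 8.24% in knockout-labelled mice, highest in the same pair. In Haao-202 the shared exon is spliced directly to one near the end of the gene. The junctions that set the pair apart start from the same exon, given in lower case, and enter different exons, given in capitals.
Haao-201: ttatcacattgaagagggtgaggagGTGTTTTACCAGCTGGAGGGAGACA
Haao-202: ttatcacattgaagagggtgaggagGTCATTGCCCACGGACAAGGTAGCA
Both sequences are on the minus strand of chromosome 17, where the shared exon ends at 83843196 and the capitals begin at 83838884 in Haao-201 and at 83832395 in Haao-202. Haao was highest in control replicate 1 and knockout-labelled replicate 1 both in TPM, at 532.5 and 562.3, and in CPM, at 567 and 523.

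For Qdpr the longest transcript, Qdpr-201 of 1380 bases, held 10.2%, 58.8% and 47.5% of counts across the controls, against 14.9%, 69.7% and 80.8% across the knockout-labelled mice. Qdpr-209, of which 97.3% of bases lie in Qdpr-201, held 47.0% and 48.9% in control replicate 1 and knockout-labelled replicate 1. In the other 4 libraries it held 0% to 0.154%, where 95% Wilson intervals reached at most 0.36%. By contrast Fah-201 held 99.8% or more of Fah counts and Tdo2-201 held 97.4% or more of Tdo2 counts in every library. The widest 95% Wilson interval of any share spanned 7.0 percentage points, and these intervals cover counting error only and not the error of assignment. Of 54 transcripts of the 9 enzymes 32 were tested, with 0 called by edgeR and 0 at an unadjusted p under 0.05, beside 0.0% called of 22297 transcripts.

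**Figure D4:**
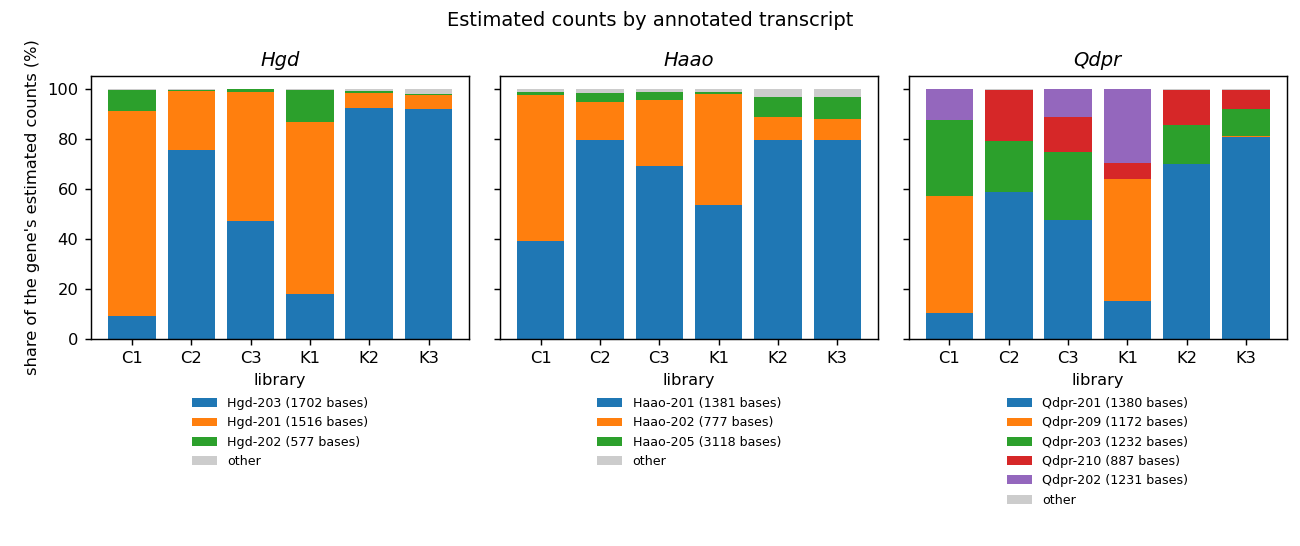
Share of the estimated counts of Hgd, Haao and Qdpr (vertical axis, percent) assigned to each annotated transcript in the 6 libraries (C, control; K, knockout-labelled). The blue shares of the longest main transcripts are smallest in C1 and K1, as for Hgd-203 with 9.06% and 17.8%.

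Across libraries, the enzymes fell into different patterns rather than moving as one. Knockout-labelled replicate 3 was the lowest library for 4 of the 9, Qdpr, Hpd, Fah and Haao, and the 9 enzymes together summed to 4117 CPM there and to 5309 to 6051 CPM elsewhere. All 4 have a mean transcript length between 1084 and 1572 bases, as does Hgd with 1479 bases, which was lowest in control replicate 1. The median deviation of genes of 801 to 1600 bases was -0.17 in knockout-labelled replicate 3. It was -0.11 in knockout-labelled replicate 2 and 0.06 to 0.13 in the other libraries. The summed level of the hepatocyte markers Alb, Apoa1, Ttr, Apob and Serpina1c was also lowest in knockout-labelled replicate 3. It was 61424 CPM there, against 89475 to 117935 CPM elsewhere. With the trend over gene length removed, the differences were -0.15 for Haao, -0.10 for Hpd, -0.29 for Fah and 0.12 for Qdpr. With the effective length of each library as an offset instead, they were -0.40 for Haao, 0.01 for Hpd, -0.28 for Fah and -0.01 for Qdpr.

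Over the 6 libraries, which differ in the level of short genes, Pearson's r of log2 CPM was highest for Fah with Haao at 0.96 and for Hpd with Haao at 0.93, and lowest for Fah with Afmid at -0.82, among 36 pairs. The genes outside the set most like its mean profile were Cyc1 (r = 0.985), R3hcc1l (0.982), Itih5 (0.965), Cbx5 (0.961) and Stbd1 (0.957), out of all genes tested and as a description only. That profile was flat, from -0.18 in knockout-labelled replicate 3 to 0.24 in knockout-labelled replicate 2. Afmid, whose reads were divided with Gm20708, had the widest deviations in it, from -1.17 to 1.30. The same division enters the r of Fah with Afmid. A profile without Afmid was not computed.

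**Figure D5:**
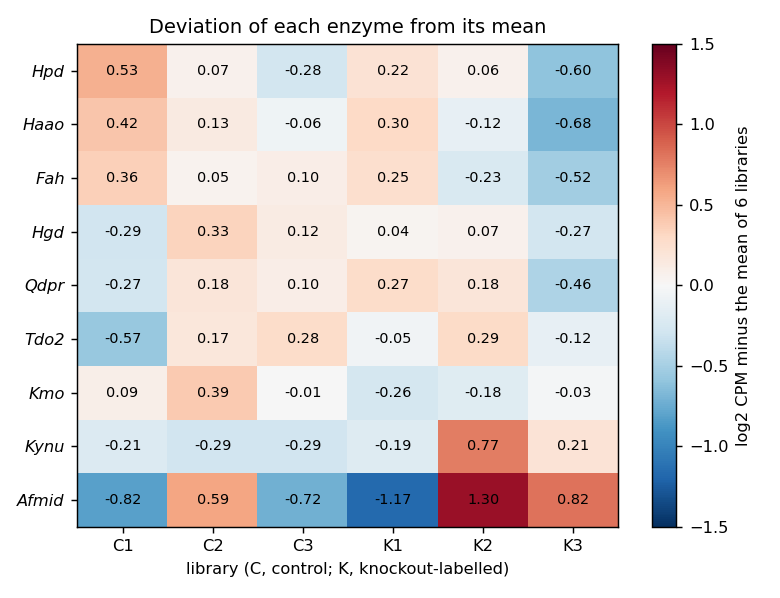
Log2 CPM of each enzyme minus its mean over the 6 libraries (colour and printed value; C, control; K, knockout-labelled). Hpd, Haao and Fah share their high values in C1 and their low values in K3, down to -0.68, whereas Afmid runs from -1.17 in K1 to 1.30 in K2.

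The other genes of these routes showed 0 calls in either direction by edgeR and by DESeq2. Of 61 genes in 8 lists 56 were tested, 23 above 0 and 33 below, with a median of -0.06, and 5 had an unadjusted p under 0.05. Over all genes 51.6% lay above 0, 48.4% lay below and 4.55% had such a p. In the rest of the phenylalanine and tyrosine route, Tat, the aminotransferase that opens tyrosine breakdown, measured 878 ± 301 and 956 ± 152 CPM in control and knockout-labelled libraries, and Gstz1, maleylacetoacetate isomerase, 696 ± 93.3 and 600 ± 72.3 CPM (SD, n = 3 each). Of 4 tested there 3 lay above 0, with a median of 0.22.

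Tetrahydrobiopterin genes lay below 0 in 6 of 7, with a median of -0.27. Pcbd1, the dehydratase that recycles the cofactor together with Qdpr, measured 317, 271 and 297 CPM across the controls, against 309, 197 and 161 CPM across the knockout-labelled mice, low in the libraries in which short genes lay low. Gch1, the rate-limiting synthesis enzyme, had a log2 difference of 0.0041, and Gchfr, the feedback regulator of Gch1, one of -0.35. Gchfr was likewise lowest in knockout-labelled replicates 2 and 3, at 67.8 and 45.6 CPM. In the rest of the tryptophan route 6 of 9 lay above 0 with a median of 0.11, and Got2, Gcdh and Aldh8a1 had log2 differences of 0.18, 0.04 and 0.16. Ido1, the dioxygenase of immune cells that opens the same ring as Tdo2, had 0 counts in all 6 libraries, where 3 counts equal 0.126 to 0.164 CPM. The list of NAD synthesis from quinolinate and other precursors is not all downstream of the 9 enzymes. Of its 8 genes 7 lay below 0, with a median of -0.25. Among these, Qprt, which uses quinolinate, had -0.22, Naprt -0.27 and the nicotinamide methyltransferase Nnmt -0.37, each with a 95% interval that included 0. Nnmt measured 157, 98.5 and 124 CPM across the controls, against 186, 67.8 and 39.7 CPM across the knockout-labelled mice. The knockout-labelled group thus held both the highest and the lowest library for Nnmt.

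Among other fates of these amino acids, Inmt, an indole and amine methyltransferase, measured 787, 727 and 599 CPM across the controls, against 424, 417 and 401 CPM across the knockout-labelled mice. The groups were well apart, with a log2 difference of -0.77 (SE 0.23, interval -1.29 to -0.24), yet the edgeR adjusted p was 0.84. Ddc, aromatic amino acid decarboxylase, measured 27.5, 41.3 and 26.9 CPM across the controls, against 49.5, 43.9 and 45.7 CPM across the knockout-labelled mice, also without overlap (log2 difference 0.54, edgeR adjusted p = 0.84). Maob, a monoamine oxidase, had -0.06, and 3 of the 4 tested genes of this list lay below 0 with a median of -0.06. All 7 tested transporters lay below 0 with a median of -0.14, led in level by Slc16a10, an aromatic amino acid exporter, at -0.04, and by Slc3a2 and Slc43a2, each at -0.14.

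Of the glucocorticoid receptor, its targets and hepatocyte transcription factors 6 of 10 lay above 0, with a median of 0.10. Hnf4a, Cebpa and Cebpb had log2 differences of 0.14, -0.61 and -0.64. Foxa2, named because it was 1 of the 5 genes with an unadjusted p under 0.05, had 0.62 (edgeR adjusted p = 0.84). Of 7 tested genes of the aryl hydrocarbon receptor, which kynurenine can activate, 5 lay above 0 with a median of 0.07, including Ahr at 0.07 and Arnt at 0.38. Its target Cyp1a2 measured 620, 386 and 301 CPM across the controls, against 208, 216 and 248 CPM across the knockout-labelled mice, without overlap (log2 difference -0.96, interval -1.65 to -0.28, edgeR adjusted p = 0.84). Cyp1a2 is also among the pericentral hepatocyte markers, of which 9 of 10 lay below 0.

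Cell type markers were likewise without a call. Periportal hepatocyte genes lay above 0 in 8 of 9 (median 0.32) and pericentral genes below 0 in 9 of 10 (median -0.27). Median log2 differences were -0.14 for hepatocyte, -0.61 for Kupffer cell and macrophage, -1.33 for neutrophil, -0.50 for T and NK cell and 0.30 for B cell markers. They were 0.14 for sinusoidal endothelial, -0.17 for stellate and fibroblast, -0.47 for cholangiocyte and -0.97 for red blood cell markers. Of 7 neutrophil markers 3 were tested. All 7 summed to 7.55, 4.49 and 16.1 CPM in controls, against 7.33, 3.85 and 3.85 CPM in knockout-labelled mice. T and NK cell markers summed to 5.59, 7.5 and 17.4 CPM in controls, against 11.1, 3.36 and 6.53 CPM in knockout-labelled mice. B cell markers summed to 13.5, 79.2 and 18.1 CPM in controls, against 85.2, 7.47 and 14.9 CPM in knockout-labelled mice. The part of cell composition in the values of the 9 enzymes was not tested.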

How the data were processed

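Each deposited file gives, per the file headers, an estimated count, TPM, length and effective length for 115221 transcripts of 1 library, with columns named as Salmon names them. From these column names, the authors' estimated counts were taken as carrying no scaling to depth, and their TPM as scaled within each library. The tools RSEM 1.2.8 and Bowtie2 2.2.5, DESeq and the build GRCm38 are named without a role by the submitters' processing notes. Libraries were made from RNA captured on oligo(dT) beads, per the labels.

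Transcripts were matched without version to GENCODE M21 (113664 matched, 1557 left out), and counts were summed per gene and rounded. Genes kept by filterByExpr (12497) were scaled by TMM and tested with the edgeR 4.0.16 quasi-likelihood test (R 4.3.3; two-sided), with p-values adjusted after Benjamini and Hochberg and 0.05 as threshold. Intervals are 95%, from the moderated degrees of freedom. Alternatives used DESeq2 1.42.0 and limma 3.58.1. On simulated counts of these 12497 genes, edgeR called 16 of 100 genes changed by 1 log2 unit, 90 of 100 changed by 2, and 8 of 12297 unchanged. Since no use of strand is stated, overlapping genes cannot be separated by it. Named genes are the 9 enzymes, G3bp1, the 3 most abundant genes of each of 8 pathway lists, and the 5 genes most like the enzymes' mean profile over the 6 libraries, and others are said to be chosen by value. Some named genes and 1 sequence pair are not reported here. Gm20708 and Tk1 were named after their values were seen. Markers formed 11 lists, and 1 of 6 hepatocyte markers, listed as Tf, matched no symbol of the annotation and was left out. The enzymes and lists were chosen with earlier results of these data known.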

Additional observations from a re-analysis of the deposited data

How the results depend on the processing

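Under the 17 listed alternatives, 0 of the 9 enzymes, 0 genes of the pathway lists and, where transcripts were refitted, 0 of their transcripts were called. Over all genes DESeq2 called 12, and the fits leaving out 1 library called 0 to 3, the 3 without knockout-labelled replicate 1. Library totals without TMM raised the median of all genes to 0.27, and log2(TPM + 0.1) raised it to 0.34. The median of the 9 enzymes was then 0.14 and 0.29, so that relative to all genes it stayed below in these settings. It was -0.01 with the effective length offset, where the median of all genes was 0.02, and -0.21 with Afmid counted with Gm20708. Leaving out 1 library gave -0.19 to 0.03. With library totals, Hpd, Hgd and G3bp1 turned to 0.05, 0.14 and 0.07. In TPM, Hpd, Hgd, Fah, Kmo and G3bp1 turned to 0.29, 0.25, 0.04, 0.03 and 0.18. The effective length offset turned Hpd to 0.01 and Qdpr to -0.01, and removal of the length trend turned Tdo2 to -0.06. Qdpr was -0.0011 with RLE factors, -0.0044 with DESeq2 and -0.0041 with limma voom. Leaving out 1 library gave -0.12 to 0.21 for Qdpr, -0.18 to 0.21 for Tdo2, -0.38 to 0.02 for Hpd and -0.28 to 0.03 for Hgd. For these turns the cause was not tested. Afmid turned from 0.81 to -0.29 when counted with Gm20708 (a sum not refitted without single libraries), an alternative chosen after seeing the data and a turn that follows from the sum, and ran from 0.31, without knockout-labelled replicate 2, to 1.41, without control replicate 2. G3bp1 ran from -0.40, with the length trend removed, to 0.18, and from -0.38 to -0.08 with 1 library left out. Kynu and Haao kept their sign in all 17.

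The replicate number as a block gave -0.01 for Qdpr, 0.64 for Afmid and 0 calls. Same-numbered libraries correlated at 0.195, 0.275 and -0.145 in their deviations from the group means, so the numbers do not show a pairing. Of 100 genes simulated with 1 log2 unit of change edgeR called 16, which limits what 3 libraries per group can show for changes of that size. The simulated counts were drawn independently, with a spread set by the fitted trend over level and no trend over gene length. The rate in the real libraries can therefore differ.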
